A study of Mus musculus with 6 samples.

Results

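The lysosomal genes described here are 40 genes for the proton pump, membrane proteins, hydrolases, channel and transcription factors of the lysosome, out of the 57132 genes in the count table. They were taken by listed symbol through the GENCODE annotation, and all 40 symbols matched a gene. By role, 8 are genes of the V1 sector of the pump, 7 of its V0 sector and accessory subunits, and 7 encode membrane proteins. Another 15 encode hydrolases and proteins that help them in the lumen, and 3 encode a calcium channel and transcription factors. The data are mRNA-seq libraries from mouse bone marrow-derived dendritic cells, that is, marrow cells grown in the cytokine GM-CSF, which drives myeloid progenitors toward dendritic cells, macrophages and granulocytes. Marrow of female C57BL/6 mice aged 6 to 8 weeks was cultured in RPMI that held GM-CSF (15 ng/mL) and dialyzed serum, fed on days 2 and 4 and harvested on day 5. The 0Q group (3 libraries) had no queuine added to this medium, and the 100Q group (3 libraries) had queuine at 100 nM throughout. The labels speak of triplicate plating and name no separate animals, so p-values measure only how these cultures vary, which may be technical.

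Lysosomes break down what a cell has engulfed or retired, and they do so at an acid pH held by the vacuolar ATPase, or V-ATPase. In that pump the cytosolic V1 sector burns ATP and the membrane-embedded V0 sector carries protons into the lumen. In dendritic cells and other phagocytes the same compartment cuts antigens into peptides for MHC class II, and many of its genes are known targets of the transcription factors TFEB and TFE3, which bind a palindromic E-box called the CLEAR element. Queuine is the base that mammals take from diet and microbes and insert as queuosine in the anticodon of 4 tRNAs, those of Tyr, His, Asn and Asp, which read codons ending in U or C.

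Total counts ran from 3675918 to 19386533 per library, with the deepest library being 100Q replicate 3. A count of 3, used as a floor, was worth 0.155 to 0.816 CPM (counts scaled to library size). Such floors cover counting error only. Of the dendritic cell list, 9 of 9 genes were detected in all 6 libraries. Their summed level was 986 to 1192 CPM in 0Q and 1034 to 1195 CPM in 100Q. Most of that sum was H2-Aa and H2-Ab1, with means of 578.5 and 219.6 CPM. Flt3 ran from 0.567 to 5.48 CPM and Zbtb46 from 0.556 to 3.16 CPM, with the lowest values near the floor. Neutrophil markers summed to more counts, with 8 of 8 detected. Their sum was 16879 to 19798 CPM in 0Q against 14077 to 17157 CPM in 100Q. S100a9 and S100a8 were the largest parts of it, with means of 5659 and 3561 CPM. The 9 macrophage and monocyte genes summed to 1101 to 1355 CPM in 0Q against 1132 to 1190 CPM in 100Q. Ly6c2 led them with a mean of 646.5 CPM, while C1qa and C1qb had 0.063 and 1.64 CPM. The T and NK cell list summed to 25.1 to 49.9 CPM over the 6 libraries, mostly Nkg7, with Cd3e at 0 in all 6. The erythroid list summed to 37.1 to 54.6 CPM, mostly the globin Hbb-bs, with Klf1 at 0 in all 6. Mast cell and basophil genes summed to 196 to 311 CPM, B cell genes to 19.8 to 28.7 CPM and stromal genes to 9.89 to 25.3 CPM. Markers of several cell types were thus present, and the dendritic cell list held a minor part of the summed marker RNA. These sums depend on the genes listed and are not shares of cells. Fewer cells of a type cannot be told apart from less RNA per cell in any value below. Of the neutrophil list, Camp, Ngp and Ly6g lay lower in every 100Q library than in any 0Q library, and the rest overlapped. Their unadjusted p-values by edgeR were 0.0062, 0.0351 and 0.0236, with adjusted p = 0.999 for each. Of the dendritic cell list, Itgax and Cd74 lay higher in every 100Q library (edgeR unadjusted p = 0.0174 and 0.297), and the rest overlapped. Over all tested genes 8.24% had such separate groups. Whether the neutrophil share had a part in the lysosomal values was not tested.

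Sequence is shown at 2 places that are known to matter for these genes, the E-box near the start site and the tyrosine-based signal that sends membrane proteins to lysosomes. The motif CACGTG, which reads the same on both strands, was searched in the 300 bases around each annotated start (250 before and 50 after). It was in 9 of 40 member promoters (22.5%: Atp6v0b, Atp6v0e, Atp6v1a, Atp6v1h, Gaa, Glb1, Ifi30, Lamp1 and Mcoln1), against 7.81% of 21770 promoters and 10.7% of the 9554 promoters of tested genes. The longer TCACGTGA, which contains it, was in 3 members (7.5%: Atp6v0e, Ifi30 and Mcoln1), against 1.11% of all promoters and 1.97% of those of tested genes. A match is a description of these letters and not a measured binding site. The stretches below are from the gene's own strand of GRCm39, 5′ to 3′, with the motif in capitals, and were chosen because they hold the longer motif or several copies.
Mcoln1 (chr8:3550462-3550491, plus strand): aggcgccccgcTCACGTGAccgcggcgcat
Atp6v0e (chr17:26895361-26895390, plus strand): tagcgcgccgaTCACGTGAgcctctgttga
Ifi30 (chr8:71219486-71219515, minus strand): atccaaaaactTCACGTGAccagacatgct
Lamp1 (chr8:13209096-13209125, plus strand): atatCACGTGgtccagcgccCACGTGatgc
Atp6v0b (chr4:117744536-117744565, minus strand): ggtCACGTGgggtcggcgcatCACGTGcgc
Atp6v1h (chr1:5153307-5153336, plus strand): gcggtCACGTGcggctgctCACGTGccaga

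Lamp1 had the motif 4 times in its window, and the stretch shows the 2 copies farthest upstream. Mcoln1, Atp6v0b and Atp6v1h had it 2 times each, and the other 5 members once.

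The second set shows the last 45 coding bases of 4 membrane proteins, with the tyrosine codon of the sorting signal in capitals. In Lamp1, Lamp2, Cd63 and Cd68 that codon was followed by 3 codons before the stop, and in the first 3 of these genes a glycine codon stood before it. The codon was TAT in those 3 genes and TAC in Cd68, and both are codons read by the tRNA that can carry queuosine.
Lamp1: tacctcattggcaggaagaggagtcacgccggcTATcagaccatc
Lamp2: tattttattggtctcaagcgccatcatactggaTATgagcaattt
Cd63: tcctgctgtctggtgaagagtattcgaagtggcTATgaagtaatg
Cd68: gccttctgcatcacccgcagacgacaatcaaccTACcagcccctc

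The lysosomal genes were a steady and sizeable part of the RNA in both groups. Together they held 2.24%, 2.09% and 2.05% of all counts without queuine (replicates 1, 2 and 3) and 2.18%, 2.05% and 2.14% with it. The groups overlapped. The 5 most abundant members by CPM (Psap, Atp6v0c, Atp6v0e, Npc2 and Cd63) took 51.8% to 54.3% of the members' counts in every library. Levels per length are given as TPM, counts divided by canonical transcript length and scaled to a fixed total. On that scale they ran from 4588 for Atp6v0e to 0.81 for Tfeb. The top gene depends on the length used: with coding length it was Atp6v0c (3958 TPM) and with the union of all exons Psap (2099 TPM), while Tfeb was lowest with each.

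No member passed the adjusted threshold between the 0Q and 100Q libraries. Of the 40 members, 39 were abundant enough to test, and Tfeb was not. By edgeR's quasi-likelihood test with Benjamini-Hochberg adjustment over 10554 genes, 0 of 39 members passed an adjusted p of 0.05, with a smallest adjusted p of 0.999. Over all tested genes 0% passed as well. At an unadjusted p under 0.05 there was 1 member, Atp6v1d, against 2.93% of all tested genes (1.16% of all tested genes were lower in 100Q at that level). DESeq2 also gave 0 members at the adjusted threshold and 1 at the unadjusted one, and limma-voom gave 0 and 2. The estimates lay above 0, meaning higher with queuine, for 22 members and below 0 for 17. The median log2 fold change was 0.01 for the members. Over all tested genes the median was 0.00 and 50% lay above 0.

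For most members the data bounded the size of any difference. For 30 of 39 members (76.9%) the 95% confidence interval of the fold change lay within 1.5-fold in either direction, against 17.96% of all tested genes. Among members at 100 CPM or more it was 27 of 29 (93.1%) and among all tested genes at that level 89.5% of 1328. The 9 members whose interval reached past 1.5-fold were Atp6v1d, Lamp1, Npc1, Scarb2, Gaa, Glb1, Neu1, Mcoln1 and Tfe3.

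**Figure D1:**
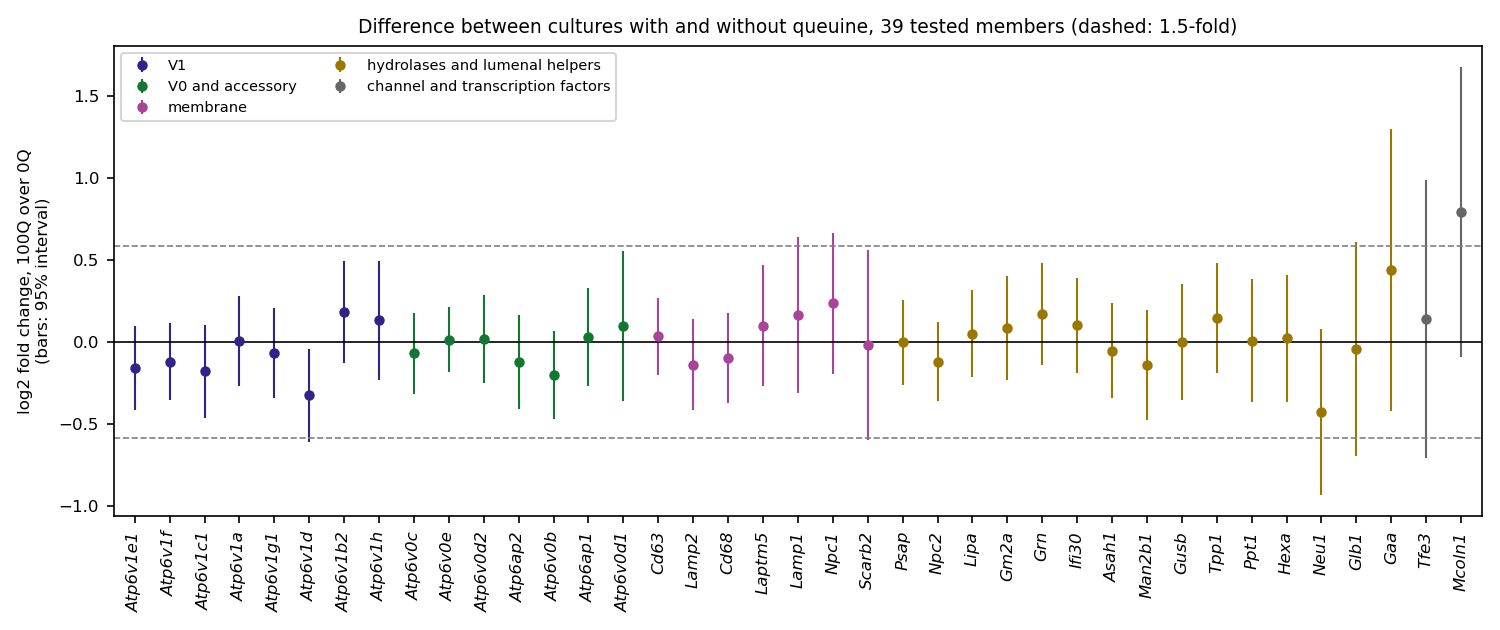
Log2 fold change of 100Q over 0Q for the 39 tested members (points; vertical axis) with 95% confidence intervals (bars), ordered within role by abundance; dashed lines mark 1.5-fold. The interval of Atp6v1d, from -0.61 to -0.04, is the one that leaves out 0, and no member passed the adjusted test.

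Groups of 3 libraries did not overlap for 3 members, of which Atp6v1h was higher and Atp6v0b and Atp6v1d were lower with queuine. Over all tested genes 8.24% did not overlap, 4.41% with 100Q higher and 3.84% with 100Q lower. The members' 3 of 39 is close to that background. All 3 belong to the V-ATPase, as do 15 of the 39 tested members.

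The V1 sector holds the ATP-hydrolysing head of the pump. Of its 8 genes 3 had an estimate above 0 and 5 below, the median log2 fold change was -0.10, and 0 passed the adjusted test. The most abundant was Atp6v1e1, a subunit of the peripheral stalks, with 1270, 928 and 1036 CPM without queuine and 943, 909 and 1040 CPM with it. The 0Q replicate 1 stood highest and the other 5 libraries lay close together, so the groups overlapped. The log2 fold change was -0.16 (SE 0.12), and without 0Q replicate 1 it was -0.03.

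Atp6v1f, a small subunit of the central rotor, had 658, 561 and 649 CPM in the 0Q libraries and 565, 568 and 582 CPM in the 100Q libraries. Here 0Q replicate 2 lay below all 100Q libraries and the other 2 above them. Its log2 fold change was -0.12 (SE 0.11).

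Atp6v1d encodes the central rotor shaft, which turns inside the head as ATP is split (chr12:78871407-78909126). It had 283, 239 and 224 CPM without queuine and 187, 195 and 213 CPM with it. All 3 libraries with queuine lay below all 3 without. The means were 248.5 ± 30.6 and 198.1 ± 13.5 CPM (SD, n = 3 each), a log2 fold change of -0.33 (SE 0.14) at an unadjusted p = 0.0273 and adjusted p = 0.999 by edgeR. The estimate stayed below 0 in the 15 other settings tried, with unadjusted p from 0.0195 to 0.132, and moved from -0.40 to -0.22 as single libraries were left out. These settings draw on the same libraries, and other members, among them Atp6v0b and Atp6v1h, also kept their sign in all 15. The annotated span of Atp6v1d overlaps on the opposite strand with Pals1 by 16805 bases and with Eif2s1 by 1446 bases. Without known strandedness, reads there cannot be told apart. Eif2s1, a subunit of the initiation factor that brings the first tRNA to the ribosome, had 444 CPM and a log2 fold change of -0.06, and Pals1, a cell polarity scaffold, had 7.11 CPM and 0.72.

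Atp6v1h, the regulatory subunit that lets V1 work only when bound to V0 (chr1:5089010-5234940), pointed the other way. It had 72.0, 78.8 and 74.5 CPM in the 0Q libraries and 80.8, 82.4 and 83.7 CPM in the 100Q libraries. The ranges nearly touched and did not overlap. The log2 fold change was 0.13 (SE 0.17, unadjusted p = 0.452), so the difference was smaller than its error in the fit.

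The catalytic head is built of A and B subunits. Atp6v1a, the A subunit where ATP is split, had a mean of 290 CPM and a log2 fold change of 0.01. Atp6v1b2, the B subunit of most tissues, had 171, 227 and 187 CPM without queuine and 246, 229 and 192 CPM with it. These overlapped, with a log2 fold change of 0.19 (SE 0.15; edgeR unadjusted p = 0.226). Atp6v1c1, a stalk subunit under the head, and Atp6v1g1, the partner of the E subunit in the stalks, had log2 fold changes of -0.18 and -0.07 with overlapping groups.

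On the per-length TPM scale the summed level of the 8 V1 genes was 3153, 2985 and 2978 in 0Q and 2837, 2929 and 2940 in 100Q. Those sums did not overlap, but the gap was small, with means of 3039 ± 99.3 and 2902 ± 56.8 TPM (SD, n = 3 each). Most of the sum came from Atp6v1f and Atp6v1e1, with means of 1155 and 1129 TPM. Both of these genes overlapped between groups in CPM, as given above. In CPM the sums did overlap, from 3013 to 3592 in 0Q and from 2898 to 3204 in 100Q. The sum is a description of the list and was given no test.

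The V0 sector is the proton channel, and its ring of c-type subunits passes the protons. The 7 V0 and accessory genes had 4 estimates above 0 and 3 below, a median of 0.01, and all 7 intervals within 1.5-fold. Atp6v0c, the main ring subunit, had 3432, 2568 and 2838 CPM in the 0Q libraries and 2724, 2568 and 3123 CPM in the 100Q libraries. Its groups overlapped almost fully, with a log2 fold change of -0.07 (SE 0.12). Atp6v0e, a small subunit bound beside the ring, had 2279, 2245 and 2180 CPM without queuine and 2323, 2196 and 2246 CPM with it. It was the steadiest member, with a coefficient of variation of 2.34% over the 6 libraries and a log2 fold change of 0.01 (SE 0.09).

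Atp6v0b, the c'' subunit of the ring (chr4:117741522-117744567), had 224, 209 and 239 CPM in the 0Q libraries and 198, 196 and 191 CPM in the 100Q libraries. All 3 libraries with queuine lay below all 3 without. The means were 224.3 ± 14.9 and 194.8 ± 3.56 CPM (SD, n = 3 each), and the log2 fold change was -0.20 (SE 0.13, unadjusted p = 0.134 by edgeR). Atp6v0b and Atp6v1h both hold the E-box 2 times downstream of the start, as printed above. Whether the motif has a part in their levels was not tested.

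The d subunit joins the ring to the V1 shaft and comes from 2 genes. Atp6v0d2 is the form known from osteoclasts and other fused or phagocytic myeloid cells, and it had 971, 766 and 913 CPM without queuine and 983, 742 and 959 CPM with it. The ubiquitous Atp6v0d1 had 49.3, 80.8 and 49.7 CPM in the 0Q libraries and 61.0, 68.7 and 63.4 CPM in the 100Q libraries. Replicate 2 was the lowest of its group for the first gene and the highest for the second in both groups. The log2 ratio of d2 to d1 counts was 3.91 ± 0.58 without queuine and 3.79 ± 0.31 with it (SD, n = 3 per group), with overlapping values from 3.24 to 4.30. Per length the myeloid form was also the higher, at 473 against 49.99 TPM with canonical and 735 against 31.1 TPM with union exon length.

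The accessory subunits Atp6ap1 and Atp6ap2 help the pump assemble and reach its membrane. Their mean levels were 142 and 463 CPM, with log2 fold changes of 0.03 and -0.12. Both overlapped between groups.

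Per canonical length, Atp6v0e (4588 TPM) and Atp6v0c (2708 TPM) stood highest among the 15 V-ATPase members, and the ring subunit Atp6v0b stood at 274 TPM. The large a subunits, which form the path for protons beside the ring, are not among the 40 genes and were far lower, with 14.7 TPM for Atp6v0a1, 12.1 for Tcirg1 and 5.57 for Atp6v0a2. The order at the top depends on the length used. With coding length Atp6v0c and Atp6v0e stood at 3958 and 3943 TPM, and with union exon length at 1259 and 979.8 TPM, the latter below Atp6v1f at 1071 TPM.

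**Figure D2:**
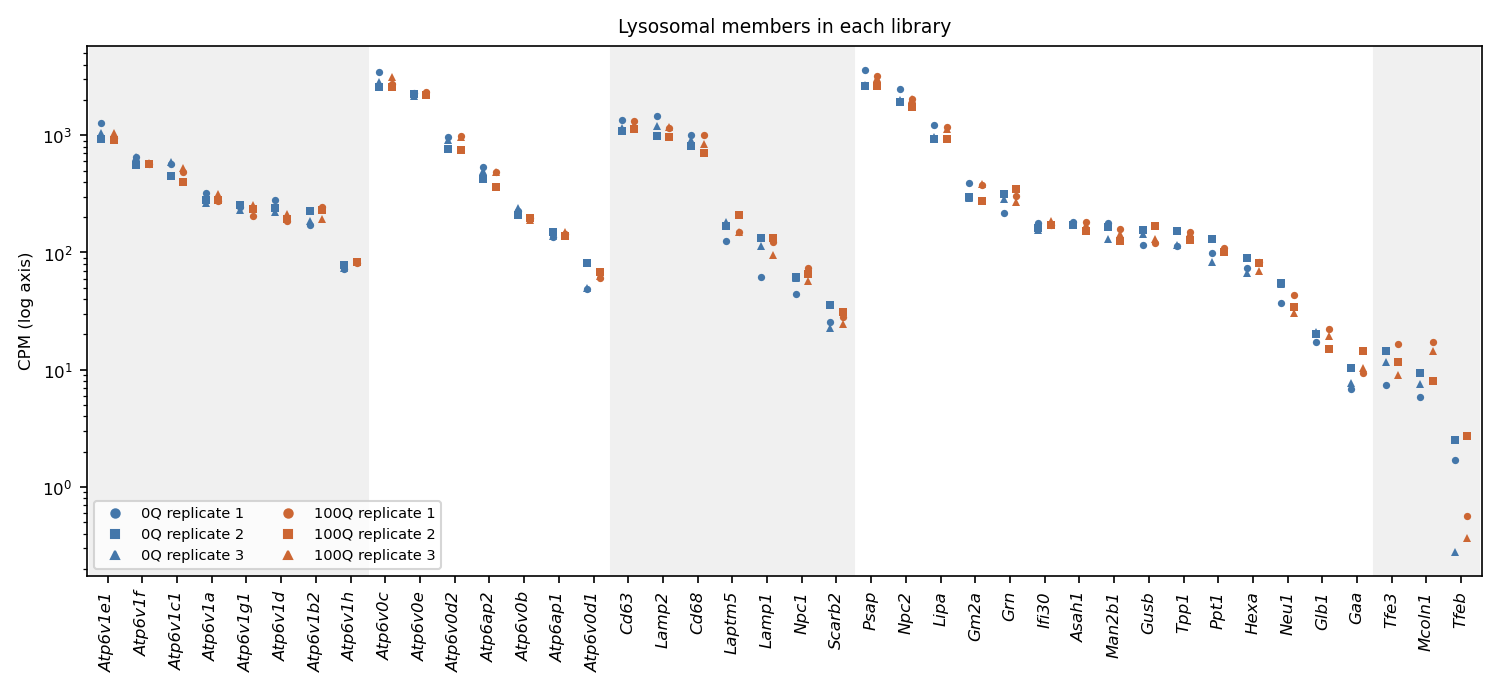
Normalized level (CPM, log axis) of the 40 members in each library, in blocks by role from V1 to the channel and transcription factors; blue marks 0Q, orange 100Q, and symbols the replicate. Blue and orange marks lie together for nearly all genes, and Tfeb is at 2.74 CPM or less in all 6 libraries.

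The membrane proteins line the inner face of the lysosome or move lipids across it. Of 7, 4 estimates lay above 0 and 3 below, the median was 0.03, and no groups were separate. Cd63, a tetraspanin of late endosomes and exosomes, had 1338, 1092 and 1155 CPM without queuine and 1333, 1126 and 1214 CPM with it. Replicate 1 was highest in both groups and the ranges were nearly the same (log2 fold change 0.03, SE 0.11). A Cd63 pseudogene with 26.6 CPM may share reads with it.

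Lamp2, a heavily glycosylated coat protein also needed for chaperone-mediated autophagy, had 1453, 985 and 1203 CPM in the 0Q libraries and 1150, 971 and 1184 CPM in the 100Q libraries. Replicates 1 and 3 without queuine lay above all 3 libraries with it and replicate 2 within their range, and the log2 fold change was -0.14 (SE 0.13). Lamp1, the sister coat protein, had 62.1, 134 and 114 CPM without queuine and 122, 133 and 94.8 CPM with it. Its 0Q replicate 1 lay far below the other 5 libraries, and it had the largest coefficient of variation among members at 100 CPM or more (25.0%). Its log2 fold change was 0.17 (SE 0.23) over all libraries and -0.10 without 0Q replicate 1.

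The log2 ratio of Lamp2 to Lamp1 counts was 4.55 in 0Q replicate 1 and 2.87 to 3.64 in the other 5 libraries. Its means were 3.61 ± 0.85 without queuine and 3.25 ± 0.39 with it (SD, n = 3 per group), which overlapped. Per canonical length Lamp2 stood at 882 TPM and Lamp1 at 58.9 TPM, and with union exon length at 205 and 48.2 TPM. Lamp1 counts were not whole numbers in any of the 6 libraries, which RSEM gives where it divides reads between genes.

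Cd68, a macrophage and dendritic cell relative of the LAMP proteins, averaged 880 CPM, with a log2 fold change of -0.10. Laptm5, a lysosomal protein of blood cells that lowers antigen receptor levels, averaged 163 CPM with a log2 fold change of 0.10. Scarb2, the receptor that carries glucocerebrosidase to the lysosome, averaged 27.9 CPM with a log2 fold change of -0.02. All 3 overlapped between groups.

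Npc1 and Npc2 act in series to export cholesterol, with Npc2 carrying it in the lumen and Npc1 taking it through the membrane. Npc2, counted here with the lumenal proteins, had 2463, 1912 and 1978 CPM in the 0Q libraries and 2047, 1753 and 2044 CPM in the 100Q libraries. Npc1 had 44.4, 62.1 and 60.3 CPM without queuine and 73.4, 65.7 and 57.5 CPM with it. The span of Npc1 overlaps Rmc1 (47.6 CPM) on the opposite strand by 11203 bases, and reads there cannot be told apart. That limit also holds for the ratio below. In 0Q replicate 1 Npc2 was at its highest and Npc1 at its lowest. The log2 fold changes were -0.12 (SE 0.11) and 0.23 (SE 0.20), and the log2 ratio of Npc2 to Npc1 counts was 5.26 ± 0.47 without queuine and 4.90 ± 0.22 with it (SD, n = 3 per group), with overlap.

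The hydrolases digest proteins, lipids and sugars, and the helper proteins present lipids to them or reduce their substrates. Of the 15 genes 9 had an estimate above 0 and 6 below, with a median log2 fold change of 0.01, no separate groups and 12 of 15 intervals within 1.5-fold. Psap, the precursor of the saposins that lift sphingolipids out of membranes, had 3624, 2613 and 2696 CPM in the 0Q libraries and 3190, 2645 and 3083 CPM in the 100Q libraries. Its log2 fold change was -0.0025 (SE 0.12), and the groups overlapped, with replicate 1 highest in each.

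Ifi30 encodes GILT, the reductase that opens disulfide bonds of antigens before they are loaded on MHC class II. It had 180, 161 and 156 CPM without queuine and 173, 173 and 187 CPM with it. The groups overlapped through 0Q replicate 1, with a log2 fold change of 0.10 (SE 0.14). Grn, the progranulin precursor, whose granulin peptides act in the lysosome, had 216, 313 and 288 CPM in the 0Q libraries and 306, 345 and 271 CPM in the 100Q libraries. It too overlapped, with 0Q replicate 1 lowest (log2 fold change 0.17, SE 0.15, unadjusted p = 0.266).

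Neu1, the sialidase that trims sialic acid from glycoproteins (chr17:35150165-35156292), had the most negative estimate of the members. It had 37.2, 54.6 and 53.9 CPM without queuine and 43.3, 34.5 and 30.7 CPM with it. The groups overlapped because 0Q replicate 1 lay below 100Q replicate 1. The means were 48.6 ± 9.84 and 36.2 ± 6.48 CPM (SD, n = 3 each), a log2 fold change of -0.43 (SE 0.24; edgeR unadjusted p = 0.0926 and adjusted p = 0.999). Its span overlaps 1110038B12Rik on the opposite strand (15.3 CPM), whose reads cannot be told apart from it in that stretch.

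The lipid enzymes Lipa, which frees cholesterol and fatty acids from lipoprotein esters, and Asah1, which splits ceramide, averaged 1058 and 171 CPM with log2 fold changes of 0.05 and -0.05. Gm2a and Hexa, the activator and the enzyme that degrade GM2 ganglioside, had log2 fold changes of 0.08 and 0.02. The other sugar-cutting enzymes Gusb, Glb1, Man2b1 and Gaa had 0.00, -0.04, -0.14 and 0.44, the last at only 9.82 CPM (SE 0.41). Ppt1, which removes palmitate from proteins, and Tpp1, a peptidase of the lumen, had 0.01 and 0.15. Ppt1 overlaps Cap1 (138 CPM) on the opposite strand. Gusb and Hexa likewise overlap Vkorc1l1 (19.9 CPM, log2 fold change 1.03) and Tmem202 (12.2 CPM, 0.98). None of these 10 genes had separate groups.

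Mcoln1 is the channel that lets calcium out of the lysosome, a step known to activate TFEB. It had 5.86, 9.45 and 7.50 CPM in the 0Q libraries and 17.1, 8.00 and 14.5 CPM in the 100Q libraries. Replicates 1 and 3 with queuine were the 2 highest of the 6 libraries, while 100Q replicate 2 lay within the 0Q range. The log2 fold change was 0.79 (SE 0.42), the largest estimate of any member, with unadjusted p = 0.0760 and adjusted p = 0.999 by edgeR, and a 95% interval from -0.09 to 1.68.

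Tfe3, a transcription factor of lysosomal genes, had 7.37, 14.5 and 11.7 CPM without queuine and 16.7, 11.6 and 9.04 CPM with it, which overlapped (log2 fold change 0.14, SE 0.40). Tfeb, its better-known relative, had 9, 18 and 1 counts in 0Q and 3, 13 and 7 counts in 100Q. In CPM these were 1.70, 2.54 and 0.278 against 0.570, 2.74 and 0.370. Counts this low allow no comparison. The log2 ratio of Tfe3 to Tfeb counts (0.5 added) was 3.12 ± 1.49 without queuine and 3.74 ± 1.47 with it (SD, n = 3 per group).

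The related factor Tfec, known from macrophages, was per length the highest of these 3, at 194 TPM against 4.76 for Tfe3 and 0.81 for Tfeb. It had 272, 218 and 283 CPM in the 0Q libraries and 254, 222 and 281 CPM in the 100Q libraries. Tfec is not one of the 40 genes. Its groups overlapped, with a log2 fold change of -0.03 (SE 0.14).

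The libraries differed among themselves in a way that ran with abundance. In 0Q replicate 1 all 12 members at 500 CPM or more lay above their own mean over the 6 libraries, by a median of 0.22 on the log2(CPM + 1) scale, while 9 of the 27 tested members below 500 CPM did so (median -0.12). In 0Q replicate 2 the picture was turned round, with 1 of 12 (median -0.15) and 22 of 27 (median 0.10). In 100Q replicate 2, 0 of 12 lay above (median -0.16) and 13 of 27 did.

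In these libraries the median deviation over all 303 tested genes at 500 CPM or more had the same sign as that of the members. It was 0.14 in 0Q replicate 1, -0.09 in 0Q replicate 2 and -0.11 in 100Q replicate 2. In 100Q replicate 1 the signs differed, with medians of 0.03 for the 12 members and -0.02 for all 303 genes. The rank correlation of deviation with transcript length across 6142 genes, given as a description, was -0.28 in 0Q replicate 1 and 0.21 in 0Q replicate 2, and between -0.06 and 0.19 in the others. The part of transcript length in these deviations was not tested. For Psap, Atp6v0c, Lamp2 and Npc2, 0Q replicate 1 was the highest of the 6 libraries and 0Q replicate 2 the lowest of its group.

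In the comparison itself, the 12 members at 500 CPM or more had 4 estimates above 0 and a median of -0.09, and the other 27 had 18 above 0 and a median of 0.03. Over all tested genes at 500 CPM or more 22.4% of estimates lay above 0, with a median of -0.08.

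**Figure D3:**
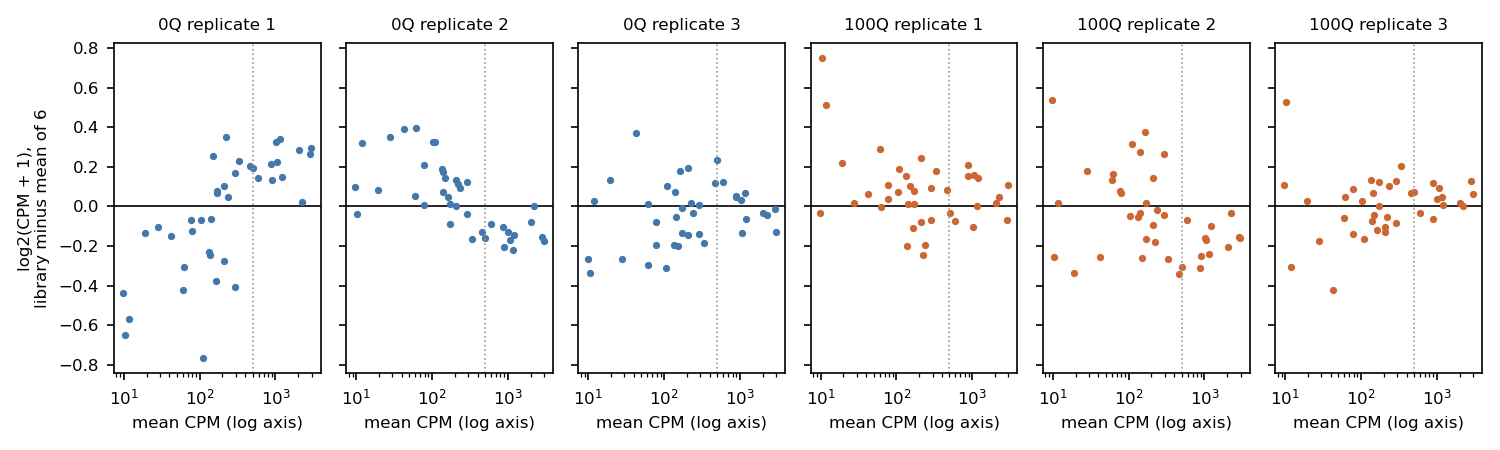
Deviation of each of the 39 tested members from its mean over the 6 libraries (log2(CPM + 1), vertical axis) against its mean CPM (log axis), 1 panel per library; the dotted line is 500 CPM. To the right of that line all 12 points are above 0 in 0Q replicate 1, and 0 of 12 are in 100Q replicate 2.

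A wider set of 83 lysosomal genes, listed by role and outside the 40, served as comparison, and 74 of them were tested. In it 0 passed the adjusted test by edgeR and 2 had an unadjusted p under 0.05, with 44 estimates above 0 and a median log2 fold change of 0.02. Groups were separate in 5 of the 74, all with 100Q higher, beside the 4.41% of all tested genes given above. Among other V-ATPase genes 6 of 13 were tested and 0 passed. Rnasek, a small V0-associated protein, had 1064 CPM and a log2 fold change of 0.02, and Tmem9, a V-ATPase-binding protein, had 3.08 CPM and -1.14 (SE 0.80, unadjusted p = 0.172). The tissue-specific isoforms Atp6v0a4, Atp6v1b1 and Atp6v1g3 of kidney, and Atp6v0e2 and Atp6v1e2, were at 0 in all 6 libraries.

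Other membrane and transport genes had 25 of 26 tested and 0 past the threshold. Laptm4a, a lysosomal membrane protein, and Lamtor3, part of the scaffold for mTORC1, had the most counts, at 288 and 274 CPM. Tmem175, a lysosomal potassium and proton channel, had 10.2, 5.22 and 6.95 CPM without queuine and 18.8, 9.90 and 14.4 CPM with it, with a log2 difference of 0.95 (SE 0.42; unadjusted p = 0.0362, adjusted p = 0.999 by edgeR). Its groups overlapped by a narrow margin. Slc15a3, a peptide and histidine transporter, had a log2 fold change of 0.66 (SE 0.33; edgeR unadjusted p = 0.0616).

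Among other hydrolases 26 of 27 were tested and 0 passed, with 17 estimates above 0. Glmp and Scpep1 led in abundance at 605 and 477 CPM.

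All 7 genes for sorting and enzyme maturation were tested, and 0 passed, led by M6pr at 356 CPM and Sort1 at 75.4 CPM, the receptors that carry enzymes from the Golgi. Of 10 further MiT/TFE factors and regulators 0 passed, with 7 estimates above 0. Mitf, another factor of the family, had 7.74, 17.1 and 8.06 CPM in the 0Q libraries and 22.4, 22.1 and 15.5 CPM in the 100Q libraries (log2 fold change 0.84, SE 0.38, unadjusted p = 0.0407, adjusted p = 0.999 by edgeR). Only 0Q replicate 2 reached into the range with queuine. Fnip1, a partner of folliculin in signalling from the lysosome, had separate groups, 15.9 ± 1.13 against 23.9 ± 2.71 CPM (SD, n = 3 each; log2 fold change 0.59, SE 0.30, unadjusted p = 0.0676).

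Since queuosine sits in the tRNAs of Tyr, His, Asn and Asp, the coding sequences were described by how often those amino acids use the codon ending in U rather than C. Over the 40 members the median share ending in U was 39.8%, against 44.0% for 8702 tested protein-coding genes with at least 20 such codons, where 5% to 95% of genes ran from 24.0% to 65.9%. In 16 of 40 members the share lay above that background median. The minimum was not applied to the members, and 4 of them (Atp6v0b, Atp6v0c, Atp6v0e and Atp6v1g1) fall under it. Over the other 36 the median was 40.9%, and 15 lay above the background median. By role, over all members, the medians were 49.2% for V1, 45.5% for V0 and accessory subunits, 38.5% for membrane proteins, 39.5% for hydrolases and 32.6% for the channel and transcription factors.

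Single genes lay far apart. Laptm5 used 3 codons ending in U and 27 ending in C (10.0%), and Gm2a used 3 and 17 (15.0%). Asah1 stood at the other end with 42 and 17 (71.2%), and Atp6v1e1 had 62.9%. The paired genes also differed, with 41.8% in Lamp1 and 56.3% in Lamp2, and 34.8% in Atp6v0d1 and 51.6% in Atp6v0d2.

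For Laptm5, Gm2a, Asah1 and Atp6v1e1 the mRNA differences were small and overlapped between groups. Their log2 fold changes were 0.10 for Laptm5 and 0.08 for Gm2a at the low end, and -0.05 for Asah1 and -0.16 for Atp6v1e1 at the high end. The next members at the low end, Gaa (22.4%) and Atp6v1g1 (28.6%), had 0.44 (SE 0.41) and -0.07. Next at the high end was Atp6ap2 (58.3%), with -0.12. Whether the share of codons ending in U has a part in mRNA levels was not tested. These libraries measure mRNA only, so translation of these codons was not measured here.

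**Figure D4:**
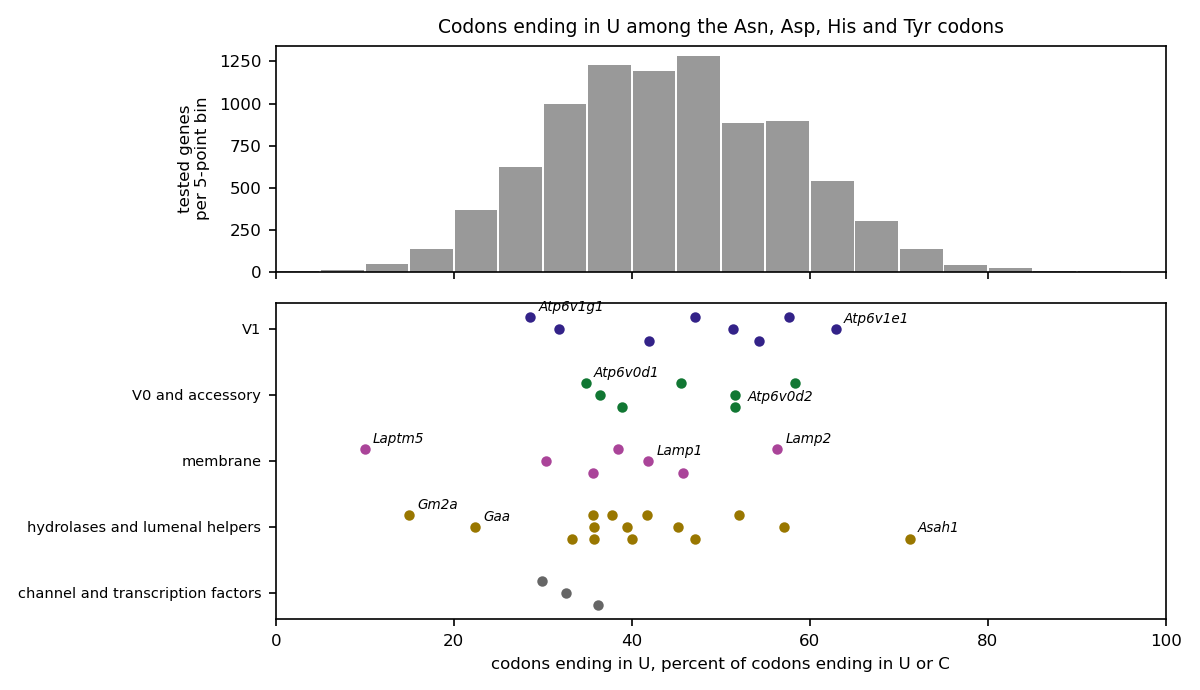
Codons ending in U as a share of all codons for Tyr, His, Asn and Asp (percent, horizontal axis): above, the number of tested genes per bin of 5 points; below, each of the 40 members by role (points; vertical offsets within a role only keep points apart). Members run from 10.0% in Laptm5 to 71.2% in Asah1, around the background median of 44.0%.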

How the data were processed

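The authors deposited a single table of expected counts per gene for the 6 libraries, estimated with RSEM after FastQC and STAR on mm39 (GRCm39) per the submitters' processing notes. For the tool versions, annotation release and strandedness: not given in the sources used here. Besides the overlaps given above, Atp6v1a, Atp6v1b2, Atp6ap2, Lamp1 and Npc2 overlap a gene on the opposite strand. Glb1 overlaps Gm57032 on its own strand. Reads in those stretches cannot be told apart. RSEM divides ambiguous reads, so counts need not be whole: 15 of 40 members were whole in all 6 libraries and 6 in none. Expected counts were rounded. Of 57132 identifiers 56630 matched GENCODE release M39, which gave symbols, coordinates and canonical transcripts. 

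The test was edgeR 4.0.16 under R 4.3.3 (filterByExpr, TMM, robust quasi-likelihood fits, Benjamini-Hochberg over 10554 genes). In simulated data with 2-fold changes it called 92.5% of 133 changed genes at 100 CPM or more. It called 30.5% at 10 to 100 CPM and 1.3% under 10 CPM, so such changes in low genes would mostly go uncalled. The simulation took means and dispersions from these data and drew each gene independently. It lacks the deviations that ran with abundance, so its percentages may not hold for the real libraries. DESeq2 1.42.0 and limma-voom 3.58.1 were alternatives. CPM used TMM-scaled totals, and TPM used canonical, coding or union exon length. Libraries of a group differed by more than sampling noise (chi-square per gene 8.79 or more). All 40 members are named. Values in every library are given for the 2 most abundant genes of each role, the smallest p in each direction, genes whose groups are separate, and a short list of paired and antigen-related genes. Of other lists, the 2 most abundant and the 2 with the smallest p are named. Some genes under this rule are not reported here. Members, lists and rules were chosen with earlier results of these data known. Amino-acid sequences were not used here.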

Additional observations from a re-analysis of the deposited data

How the results depend on the processing

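Other settings were DESeq2, limma-voom, RLE factors, library totals alone, other filters and a replicate block, with the thinning of 100Q replicate 3 and the removal of a length and GC trend added after seeing the data. In all 15 settings 0 members passed the adjusted threshold. Over all genes 0 passed except without 0Q replicate 1 (2 genes) and without 0Q replicate 2 (1 gene), a range of 0 to 2 with a library left out. The members' median log2 fold change stayed within 0.05 of 0: it was 0.0129 with the replicate block (24 members above 0), 0.0435 with library totals alone, -0.00317 with DESeq2, and -0.0409 to 0.0262 with a library left out. Its sign thus differed between settings. The number above 0 ran from 15 to 24. Of 234 member estimates with a library left out, 40 changed sign. Same-numbered libraries had r = 0.05, 0.19 and -0.06 over 6256 genes, and libraries with different numbers had r from -0.22 to 0.231. The labels name no pairing, and these values cannot show whether same-numbered cultures were paired. Low counts limit Tfeb, Mcoln1, Gaa and Tfe3, whose intervals, where tested, were the widest.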
